A study of Mus musculus with 6 samples.

Results

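The 10 genes described here encode the pyruvate dehydrogenase kinases Pdk1, Pdk2, Pdk3 and Pdk4, the opposing phosphatase subunits Pdp1 and Pdp2, and the complex subunits Pdha1, Pdhb, Dlat and Pdhx. They were taken by symbol: every probe set of an Affymetrix mouse expression array whose single gene symbol was 1 of these names. That gave 18 of the 34945 probe sets with a single symbol, and 10 of 18193 genes. The set was chosen on earlier results of these arrays, in which the signal of Pdk4 differed between treated and control cells, so levels and calls of its members are a description and not an independent test.

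The cells were dermal fibroblasts of mice 0 to 2 days old, grown out of skin explants and used at passage 4. Per the labels, transgenic males of a mixed 129/ICR background, with GFP on the X chromosome under the chicken β-actin promoter and the CMV enhancer, were bred to BL6 females (the strain field reads B6), and all groups began as daughters' cells sorted for absent GFP, so that the transgene lay on the inactive X. GFP-positive cells (2 arrays) had received 5-aza-2'-deoxycytidine at 4 μM, a drug that blocks the upkeep of DNA methylation, for 48 h, had recovered for 24 h and were sorted again for GFP, and GFP-negative cells (2 arrays) came from the other gate of the same second sort. Control cells (2 arrays) were kept for the same times without drug and were not sorted again, so drug and second sort cannot be told apart in either comparison with control. The sex field of control replicate 2 reads mixed, and the free text of the treated samples calls them untreated with drug where their treatment field gives 4 μM. The replicates are called biological with nothing said of separate cultures or animals, so the p-values measure only the spread between these samples.

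Pyruvate dehydrogenase is the mitochondrial complex that turns pyruvate, the end product of glycolysis, into the acetyl-CoA that enters the tricarboxylic acid cycle. The kinases phosphorylate its alpha subunit and shut the complex off, which leaves more pyruvate for lactate, and the phosphatases remove that phosphate and switch it on again. Pdk4 is known as the kinase of fasted muscle, heart and liver and is transcribed under PPAR nuclear receptors, FOXO factors and the glucocorticoid receptor, whereas Pdk1 is known as a target of HIF-1, the hypoxia factor. The arrays measure RNA and not phosphorylation or enzyme activity.

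The drug blocks the upkeep of methylation at CG dinucleotides. The promoter windows of the member that stood apart (Pdk4) and of the X-linked members (Pdk3 and Pdha1) are therefore shown, each with its CG dinucleotides in capitals. Each window holds 300 bases, most of them before the annotated start, read 5′ to 3′ on the gene's own strand from RefSeq on GRCm38.p6. Methylation was not measured here.
Pdk4, chr6:5496229-5496528, minus strand: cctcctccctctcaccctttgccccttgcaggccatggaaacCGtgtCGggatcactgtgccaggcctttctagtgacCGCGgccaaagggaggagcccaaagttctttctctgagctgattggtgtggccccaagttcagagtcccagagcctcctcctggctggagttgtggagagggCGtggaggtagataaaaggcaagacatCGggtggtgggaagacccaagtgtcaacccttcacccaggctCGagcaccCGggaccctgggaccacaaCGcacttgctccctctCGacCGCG
Pdk3, chrX:93832101-93832400, minus strand: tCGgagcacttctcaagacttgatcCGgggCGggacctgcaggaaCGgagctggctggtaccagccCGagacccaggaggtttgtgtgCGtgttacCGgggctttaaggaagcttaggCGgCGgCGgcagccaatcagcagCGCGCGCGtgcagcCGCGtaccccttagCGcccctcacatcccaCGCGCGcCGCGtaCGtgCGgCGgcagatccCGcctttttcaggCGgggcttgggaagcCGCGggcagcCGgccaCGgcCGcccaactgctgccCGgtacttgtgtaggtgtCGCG
Pdha1, chrX:160138381-160138680, minus strand: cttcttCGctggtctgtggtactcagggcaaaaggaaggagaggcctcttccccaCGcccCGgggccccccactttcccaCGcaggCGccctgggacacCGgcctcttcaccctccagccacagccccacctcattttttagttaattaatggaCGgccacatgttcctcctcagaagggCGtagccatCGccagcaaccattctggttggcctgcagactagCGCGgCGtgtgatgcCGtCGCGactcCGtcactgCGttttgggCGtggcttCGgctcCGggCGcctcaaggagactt

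The Pdk4 window held 12 CG dinucleotides, against a median of 7 and quartiles of 3 and 20 over 32851 windows of the same length, and 60.41% of windows held fewer. The Pdk3 window held 35, more than 93.05% of windows, and the Pdha1 window 21, more than 75.2%. Of the other members, Pdk1 and Pdk2 had 25 at their upstream start and 2 and 13 at a downstream one, Pdhx 28, Pdhb 24, Dlat 18 and Pdp2 14. The Pdk4 window thus had fewer CG than the upstream window of each of the other 8 genes shown, and Pdp1 is only named. The core hypoxia element ACGTG, which contains a CG, was searched on both strands and was in 19.62% of all windows. It was in the upstream windows of Pdk2, Pdk3, Pdp2 and Pdhb, in neither window of Pdk1 and not in that of Pdk4. The FOXO letters GTAAACA (3.65% of windows), the nuclear receptor half-site AGGTCA (16.26%) and TATAAA (13.62%), searched the same way, were in none of the 11 member windows, and CCAAT (37.41%) was in 6 of them, Pdk4 included. These matches say only which letters stand in the windows.

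**Figure D1:**
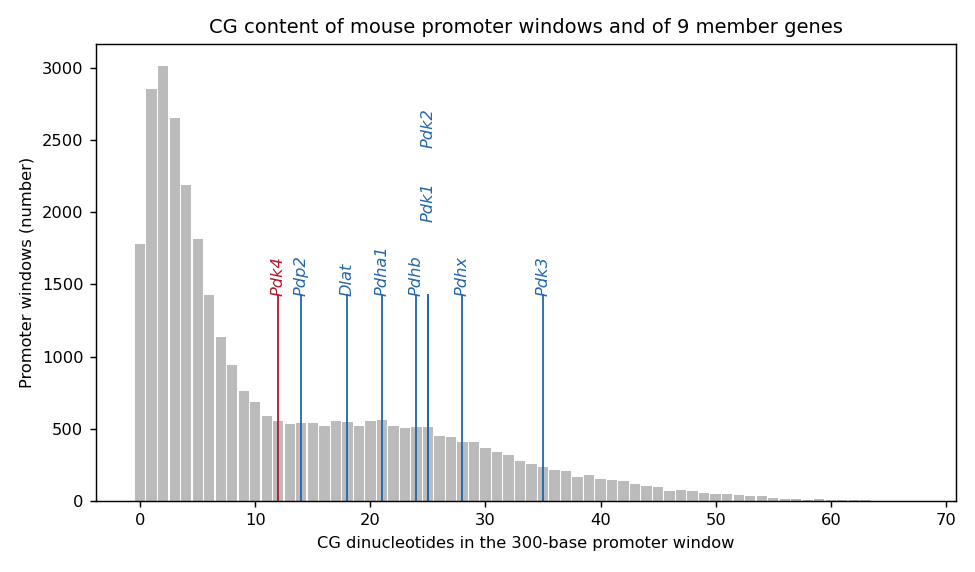
CG dinucleotides per 300-base promoter window (horizontal axis) against the number of mouse RefSeq windows with that count (vertical axis, grey bars). Lines mark the upstream window of 9 member genes: Pdk4 (red) is at 12, the lowest of them, and Pdk3 is at 35, the highest.

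Values are MAS5 signals, a brightness per probe set on a linear scale, with each array scaled to a trimmed mean of 500. As deposited it was 500.003 to 500.004 for 4 arrays. It was 50.5 for GFP-positive replicate 2 (multiplied by 9.90) and 62.0 for GFP-negative replicate 2 (multiplied by 8.06). After scaling, the lower quartile was 38.7 to 42.6 on the arrays numbered 1 and 19.2 to 22.6 on those numbered 2, so dim probe sets differ between the numbers in every group. Of 12 fibroblast markers, 12 passed the filter on low signal. Their summed signal was 163778 to 164115 in GFP-positive, 166985 to 175938 in GFP-negative and 214606 to 222508 in control cells. By gene, 10 of the 12 were lower in both comparisons with control, with medians of -0.98 in GFP-positive and -0.74 in GFP-negative cells against 0.04 over all genes in each. In GFP-positive cells 1 was called (0.122% of all probe sets tested) and in GFP-negative cells 0 (0.0296%). Differences are on the scale log2(signal + 30.6), on which changes of dim genes come out too small, with limma's standard error (SE) and p-values adjusted over all 27022 probe sets tested.

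Pdk4 was the member that set the treated cells apart. Its only probe set (1417273_at, on chromosome 6) had signals of 992 and 1514 in GFP-positive cells, 1034 and 1002 in GFP-negative cells, and 241 and 243 in control cells. All 4 treated arrays lay far above both control arrays, which were almost equal, while the GFP-positive arrays lay on either side of the GFP-negative ones. The means were 1253 ± 369 in GFP-positive, 1018 ± 22.7 in GFP-negative and 242 ± 1.34 in control cells (SD, n = 2 each), which made the GFP-positive mean 5.19 times and the GFP-negative mean 4.21 times the control mean. The order of the group means was GFP-positive, GFP-negative, control, and only the neighbours GFP-negative and control were further apart than their spread.

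On the log2 scale Pdk4 was higher by 2.21 ± 0.28 (SE; 95% interval 1.56 to 2.85) in GFP-positive than in control cells. Within the arrays numbered 1 the difference was 1.91 and within those numbered 2 it was 2.50, and limma gave an adjusted p of 0.0456. The other comparison uses the same control arrays: GFP-negative minus control was 1.95 ± 0.28 (1.30 to 2.59), with 1.97 and 1.92 within the numbers and an adjusted p of 0.111. So both treated populations had the higher level, and only the GFP-positive one passed the threshold of 0.05 in this fit. GFP-positive minus GFP-negative was 0.26 ± 0.28 (-0.38 to 0.91; adjusted p = 1.00 by limma), with -0.06 and 0.58 within the numbers, and without GFP-positive replicate 2 it was -0.04. The call in GFP-positive cells was lost when any 1 of the 6 arrays was left out (adjusted p 0.0658 to 0.354) and when both rescaled arrays were (1.91, adjusted p = 0.172), although the difference stayed between 1.91 and 2.50.

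Of the 17 member probe sets bright enough to be tested, Pdk4 was the 1 called in GFP-positive against control cells, where the background was 0.122% (24 of 27022 higher, 0.0888%, and 9 lower, 0.0333%). It was also the 1 member with an unadjusted p under 0.05 there (background 7.04%). In GFP-negative against control cells limma called 0 of the 17 (background 0.0296%), with 1, Pdk4, at an unadjusted p under 0.05 (background 5.07%). Between GFP-positive and GFP-negative cells it called 0 of 17 members, and 0.0% of all probe sets, and 0 members had an unadjusted p under 0.05 (background 0.625%). Since the genes were chosen knowing these comparisons, nothing is read from the counts.

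**Figure D2:**
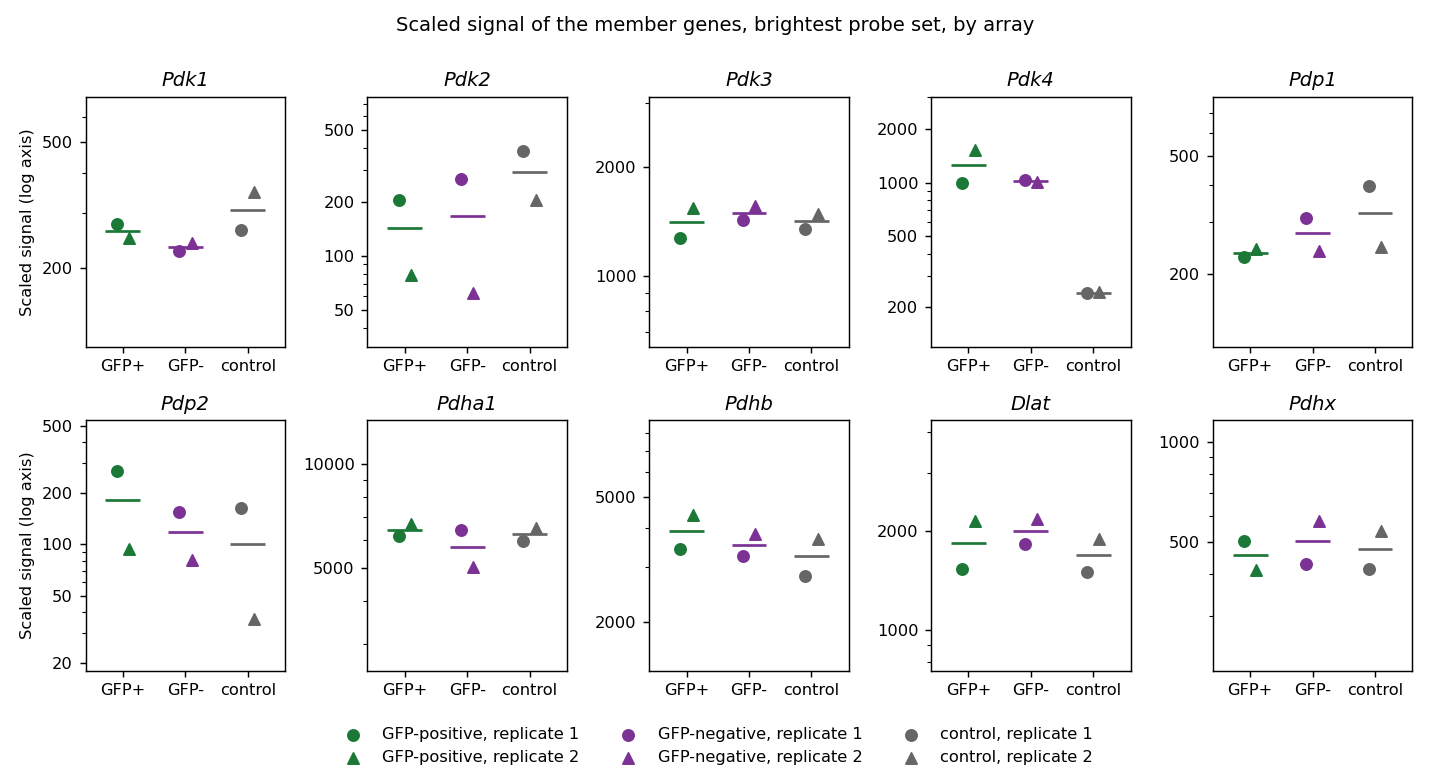
Scaled signal (log axis) of the brightest probe set of each of the 10 genes in GFP-positive (GFP+), GFP-negative (GFP-) and control cells. Points are arrays (circle, replicate 1; triangle, replicate 2) and bars are means of 2. The 4 treated arrays of Pdk4 lie between 992 and 1514 and its control arrays at 241 and 243, while in most other panels the groups overlap.

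Markers of other cell types are given beside Pdk4, which muscle and fat tissue are known to express. Of the 9 skeletal muscle markers on the array, 4 passed the filter, and their list summed to 13261 to 13291 in GFP-positive, 13326 to 16720 in GFP-negative and 4531 to 9664 in control cells. That sum was mostly Acta1, skeletal muscle actin, with 12483 and 12559 in GFP-positive, 12256 and 16264 in GFP-negative, and 4084 and 9193 in control cells. Des, the muscle intermediate filament desmin, had 224 and 391 in GFP-positive, 536 and 314 in GFP-negative, and 44.6 and 69.1 in control cells. Both were thus higher in all 4 treated arrays. Without the replicate number as a block, their adjusted p were 0.557 and 0.258 for GFP-positive and 0.638 and 0.251 for GFP-negative against control cells (limma). The muscle determination factor Myod1 had 112 and 71.2 in GFP-positive, 141 and 14.5 in GFP-negative, and 68.2 and 137 in control cells, and creatine kinase Ckm overlapped likewise. Myogenin (Myog), the muscle myosins Myh1, Myh2 and Myh3 and troponin Tnnt3 stayed under the filter, between 4.84 and 139 on single arrays, and were not tested. Myh1 read 73.9 and 60.4 in GFP-positive, 29.1 and 4.84 in GFP-negative, and 20.6 and 5.90 in control cells. Myog read 13.4 and 86.1 in GFP-positive, 10.9 and 10.5 in GFP-negative, and 10.6 and 8.90 in control cells. In Myh2, Myh3 and Tnnt3 the groups overlapped.

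Of 6 adipocyte markers on the array, 3 passed the filter, and the list summed to 864 to 1427 in GFP-positive, 855 to 1749 in GFP-negative and 883 to 1978 in control cells, so the groups overlapped. The defining fat cell genes Adipoq, Lep and Cidec were under the filter. In cultures such as these, more cells of a type and more RNA per cell cannot be told apart.

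Leukocyte markers on the array numbered 7, of which 5 passed the filter, with sums of 1339 to 1405 in GFP-positive, 1230 to 1581 in GFP-negative and 804 to 1329 in control cells. Cd68, a lysosomal protein of macrophages, read 169 and 203 in GFP-positive, 185 and 148 in GFP-negative, and 84.1 and 30.5 in control cells. The macrophage receptor Csf1r read 586 and 829 in GFP-positive, 821 and 795 in GFP-negative, and 546 and 539 in control cells. Both had their higher values on the 4 treated arrays, and limma called neither (adjusted p 0.570 and 0.966 for GFP-positive, 0.932 and 1.00 for GFP-negative cells). Cd52, between these 2 by p, had the opposite sign. It read 105 and 58.4 in GFP-positive, 25.3 and 43.5 in GFP-negative, and 272 and 74.7 in control cells (-0.70 and -1.47). Laptm5 had 0.67 in both comparisons and Adgre1 0.07 in both, so the list did not move as 1. The defining leukocyte genes Ptprc and Tyrobp were under the filter. Of 6 endothelial markers, 4 passed it, with sums of 275 to 604 in GFP-positive, 343 to 594 in GFP-negative and 604 to 624 in control cells, and Pecam1 and Cldn5 were under it. The sums of the keratinocyte markers were 686 to 800 in GFP-positive, 542 to 621 in GFP-negative and 520 to 740 in control cells. Those of the melanocyte and Schwann cell markers were 500 to 1043 in GFP-positive, 476 to 1170 in GFP-negative and 497 to 1022 in control cells, so these groups overlapped. Keratinocyte sums of GFP-positive cells lay above those of GFP-negative cells, and both overlapped control. Endothelial sums of GFP-negative cells lay below control. The endothelial genes of smallest p, Tek and Emcn, lay below both control arrays on all 4 treated arrays, uncalled, while Kdr and Cdh5 overlapped control.

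Single fibroblast markers differed more than the sum of their list, in which Vim, which encodes vimentin, had the brightest mean over the 6 arrays (43422). Fbln5, an elastic fibre protein, read 4143 and 3848 in GFP-positive, 4584 and 4904 in GFP-negative, and 13877 and 17556 in control cells. It was called lower in GFP-positive cells (-1.96, adjusted p = 0.0325 by limma), a call kept without 1 of the 6 arrays and lost without each of the other 5 (adjusted p 0.0451 to 0.326), and in GFP-negative cells it was not called (-1.71, adjusted p = 0.0827 by limma). The collagen-binding proteoglycan Lum read 291 and 93.0 in GFP-positive, 274 and 51.6 in GFP-negative, and 2320 and 934 in control cells. Its relative Dcn, named after its values were seen, read 1496 and 203 in GFP-positive, 2720 and 334 in GFP-negative, and 12516 and 2957 in control cells. Without the replicate number as a block neither was called (limma, adjusted p 0.312 and 0.532 for GFP-positive, 0.387 and 0.998 for GFP-negative cells). All 4 treated arrays lay below both control arrays, and with the block both were called, as given below. The part of the muscle, leukocyte, endothelial and fibroblast genes in the Pdk4 difference was not tested.

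Pdk1, Pdk2 and Pdk3 did not share the Pdk4 pattern. Pdk1, the HIF-1-responsive kinase, had signals of 277 and 249 in GFP-positive, 226 and 240 in GFP-negative, and 264 and 348 in control cells at its brightest probe set (1423747_a_at). Both GFP-negative arrays lay below both control arrays, and the GFP-positive arrays overlapped the control ones. The log2 difference from control was -0.19 ± 0.32 (95% interval -0.93 to 0.55) in GFP-positive and -0.34 ± 0.32 (-1.08 to 0.40) in GFP-negative cells. The probe set 1423748_at read 190 and 164 in GFP-positive, 255 and 254 in GFP-negative, and 185 and 206 in control cells (-0.12 and 0.33). The probe set 1435836_at read 117 and 76.2 in GFP-positive, 134 and 144 in GFP-negative, and 155 and 131 in control cells (-0.46 and -0.03). All 3 tested probe sets thus had negative estimates in GFP-positive against control cells, none of them called (adjusted p = 0.997 each by limma). Within the numbers, 1423747_a_at had 0.06 and -0.44, 1423748_at 0.03 and -0.28, and 1435836_at -0.33 and -0.60, so the first and second changed sign. In GFP-negative cells the 3 estimates differed in sign. A 4th probe set, 1434974_at, lay under the filter with a mean of 8.22 over the 6 arrays.

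Pdk2, the most widely expressed kinase of the family, had the lowest treated levels relative to control among the 10 genes. Its probe set (1448825_at) read 206 and 79.2 in GFP-positive, 269 and 62.9 in GFP-negative, and 384 and 205 in control cells. In both numbers the control array was the brightest of its 3, but the number 2 arrays were dimmer in every group, and GFP-positive replicate 1 lay just above control replicate 2. The GFP-positive difference from control was -0.95 ± 0.66 (95% interval -2.48 to 0.57), with -0.81 and -1.10 within the numbers, and limma gave an adjusted p of 0.939. GFP-negative minus control was -0.90 ± 0.66 (-2.42 to 0.63), with -0.47 and -1.33 within the numbers (adjusted p = 1.00 by limma). Leaving out GFP-negative replicate 2 gave -0.06 and leaving out the other GFP-negative array gave -1.74, so single arrays set its size. These values are not calls, and the interval spans both a large deficit and a modest excess.

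Pdk3, an X-linked kinase known for its high activity towards the complex, was the steadiest of the 4. It read 1277 and 1545 in GFP-positive, 1430 and 1566 in GFP-negative, and 1353 and 1485 in control cells (1426410_at). All 3 groups overlapped, and in each the array numbered 2 was the brighter. GFP-positive minus control was -0.01 ± 0.22 (95% interval -0.53 to 0.50), GFP-negative minus control 0.08 ± 0.22 (-0.44 to 0.59), and GFP-positive minus GFP-negative -0.09 ± 0.22 (-0.61 to 0.43). These 95% intervals, from 2 arrays a group and a single probe set, still admit differences in Pdk3 RNA between -0.61 and 0.59.

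The phosphatases showed no call in either direction. Pdp1, the calcium-stimulated catalytic subunit, read 228 and 243 in GFP-positive, 311 and 239 in GFP-negative, and 397 and 247 in control cells (1434228_at). The GFP-positive arrays lay below both control arrays, but by very little below control replicate 2. GFP-positive minus control was -0.37 ± 0.35 (95% interval -1.18 to 0.44), with -0.72 within the arrays numbered 1 and -0.02 within those numbered 2, and GFP-negative minus control was -0.18 ± 0.35 (-0.99 to 0.63). The dimmer probe set 1438201_at had the same order of groups, at 133 and 87.1 in GFP-positive, 190 and 100.0 in GFP-negative, and 251 and 139 in control cells, and a difference of -0.65 ± 0.49 in GFP-positive cells.

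Pdp2, the other catalytic subunit, had positive differences with wide error. It read 269 and 94.0 in GFP-positive, 156 and 80.6 in GFP-negative, and 164 and 36.2 in control cells (1428996_at). The groups overlapped, and within each number the GFP-positive array was the brightest. Relative to control, GFP-positive cells differed by 0.76 ± 0.70 (95% interval -0.85 to 2.37), with 0.62 and 0.90 within the numbers, and GFP-negative minus control was 0.34 ± 0.70 (-1.28 to 1.95), with -0.06 and 0.74. Leaving out single arrays moved the GFP-positive difference between -0.01 and 1.53.

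The subunits of the complex itself were bright and nearly level. Pdha1, the X-linked alpha subunit that the kinases phosphorylate, read 6186 and 6686 in GFP-positive, 6425 and 5041 in GFP-negative, and 5999 and 6513 in control cells (1418560_at). The groups overlapped, and the dimmest of the 6 arrays was GFP-negative replicate 2. The difference of GFP-positive from control cells was 0.04 ± 0.21 (95% interval -0.45 to 0.53), and 0.04 within each number. GFP-negative minus control was -0.13 ± 0.21 (-0.63 to 0.36), with 0.10 and -0.37 within the numbers. GFP-positive minus GFP-negative was 0.18 ± 0.21 (-0.32 to 0.67). A further probe set, 1449137_at, read 2380 and 4473 in GFP-positive, 2728 and 3735 in GFP-negative, and 3234 and 4725 in control cells. There too the groups overlapped.

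Pdhb, the beta subunit that pairs with Pdha1, read 3407 and 4390 in GFP-positive, 3240 and 3803 in GFP-negative, and 2803 and 3688 in control cells (1416090_at). Each treated array was above the control array of its own number, yet the groups overlapped. GFP-positive minus control was 0.26 ± 0.24 (95% interval -0.30 to 0.83), with 0.28 and 0.25 within the numbers, and GFP-negative minus control was 0.13 ± 0.24 (-0.44 to 0.69). The dim probe set 1448214_at read 164 and 160 in GFP-positive, 111 and 106 in GFP-negative, and 150 and 106 in control cells, so its GFP-positive arrays were above all others while its GFP-negative difference had the opposite sign (-0.17).

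Dlat, the acetyltransferase core of the complex, read 1535 and 2153 in GFP-positive, 1821 and 2175 in GFP-negative, and 1504 and 1887 in control cells at its brightest probe set (1426265_x_at, whose probes may cross-hybridise with similar transcripts). The groups overlapped. It differed from control by 0.11 ± 0.26 (95% interval -0.49 to 0.70) in GFP-positive cells and by 0.24 ± 0.26 (-0.36 to 0.83) in GFP-negative cells. A probe set without that limit, 1426264_at, gave 0.24 in GFP-positive and 0.23 in GFP-negative cells, and the dimmer 1452005_at gave -0.04 and 0.00. Pdhx, which anchors the dihydrolipoamide dehydrogenase subunit to that core, read 503 and 411 in GFP-positive, 428 and 580 in GFP-negative, and 416 and 538 in control cells (1456090_at). Its GFP-positive minus control difference was -0.05 ± 0.30 (-0.74 to 0.63) and had opposite signs within the numbers (0.26 and -0.37), and GFP-negative minus control was 0.07 ± 0.30 (-0.62 to 0.76).

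At the brightest probe set of each gene, 5 of the 10 were higher and 5 lower in GFP-positive than in control cells, with a median log2 difference of 0.01, against 0.04 over 13223 genes tested. In GFP-negative cells 6 were higher and 4 lower than in control cells, with a median of 0.07, against 0.04 over all genes. Both treated arrays lay above both control arrays in 2 of the 17 tested probe sets for GFP-positive cells (background 17.3%) and below in 3 (background 14.9%), and the counts for GFP-negative cells were 2 (15.1%) and 1 (13.5%). The 16 tested probe sets other than that of Pdk4 had adjusted p of 0.939 or more in limma in every comparison of this fit, which has no block. Their differences from control ran between -0.95 and 0.76 in GFP-positive cells and between -0.90 and 0.34 in GFP-negative cells. The 95% intervals reached from -2.48 to 2.37, so large differences in the dimmer genes cannot be told from none with 2 arrays a group.

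**Figure D3:**
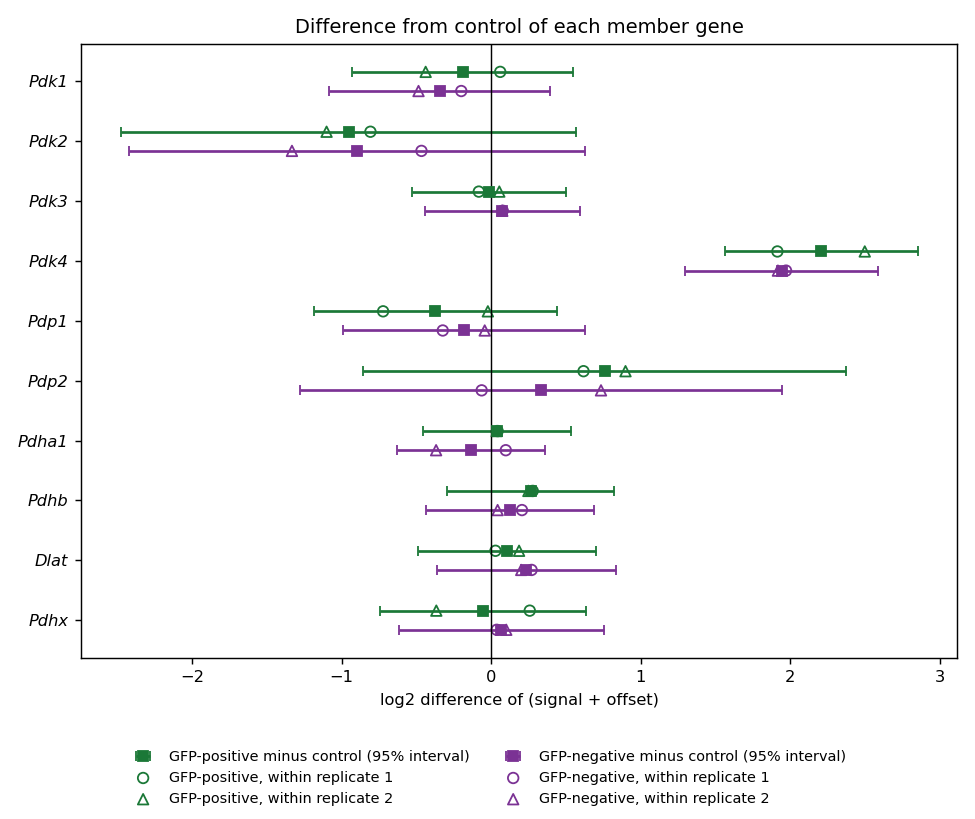
Log2 difference of signal plus offset from control cells for GFP-positive (green, upper) and GFP-negative cells (purple, lower), by gene. Squares are limma estimates with 95% intervals, and open circles and triangles are the differences within the arrays numbered 1 and 2. Only the intervals of Pdk4 (1.56 to 2.85 and 1.30 to 2.59) leave 0 out.

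The genes around the complex were read through 7 lists holding 97 genes, of which 88 had a probe set of their own and 82 passed the filter. limma called 0 of the 82 in GFP-positive against control cells (lowest adjusted p 0.216, background over all probe sets 0.122%). Of the 82, 6 were higher and 6 lower at an unadjusted p under 0.05 (background 7.04%). In GFP-negative against control cells limma called 0 (lowest adjusted p 0.280, background 0.0296%), with 4 higher and 5 lower unadjusted (background 5.07%). Between GFP-positive and GFP-negative cells it called 0 (background 0.0%), with 0 unadjusted (background 0.625%). Both GFP-positive arrays lay above both control arrays in 14 genes and below in 15 (background 17.3% and 14.9%). For GFP-negative cells the counts were 10 (15.1%) and 19 (13.5%). In the GFP-positive comparison 35 of the 82 were higher and 47 lower (median -0.04), and in the GFP-negative one 37 were higher and 45 lower (median -0.06). Apart from Dld and Pdha2, which were named after their values were seen, the genes named next had the smallest p of their lists. Since none passed the test in this fit, which has no block, their values are given without a direction being claimed.

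The direct partners of the complex, the enzymes that attach its lipoyl group and its sister complexes form the next list. Of 11 tested, 3 were higher and 8 lower than in control cells in both comparisons, with medians of -0.08 in GFP-positive and -0.16 in GFP-negative cells and 0 at an unadjusted p under 0.05. Dld, the dehydrogenase subunit that the complex shares with its relatives, read 1568 and 2092 in GFP-positive, 1350 and 1754 in GFP-negative, and 1636 and 1928 in control cells, and the groups overlapped. Pdpr, the regulatory partner of the phosphatase Pdp1, differed from control by -0.41 ± 0.43 in GFP-positive and -0.54 ± 0.43 in GFP-negative cells. Bckdha and Bckdhb of the related branched-chain complex had -0.53 and -0.39 in GFP-positive and -0.72 and -0.54 in GFP-negative cells, and the lipoyl transferase gene Lipt1 -0.36 and -0.44. The testis form of the alpha subunit, Pdha2, read 83.7 and 64.3 in GFP-positive, 6.10 and 4.03 in GFP-negative, and 5.90 and 3.0 in control cells. Its mean over all arrays was under the filter, so it was not tested.

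Of 8 tested genes that carry or convert pyruvate and lactate, 3 were higher and 5 lower than in control cells in both comparisons, with medians of -0.21 in GFP-positive and -0.16 in GFP-negative cells. Mpc1, a subunit of the carrier that brings pyruvate to the complex, read 1672 and 2099 in GFP-positive, 1946 and 1613 in GFP-negative, and 2937 and 2721 in control cells. All 4 treated arrays lay below both control arrays, with differences of -0.59 ± 0.23 and -0.66 ± 0.23 and adjusted p of 0.623 and 0.756 (limma). Gpt2, the mitochondrial alanine transaminase, differed from control by -0.77 ± 0.29 in GFP-positive and -0.54 ± 0.29 in GFP-negative cells and was also below both control arrays on all 4. Me1, the cytosolic malic enzyme that makes pyruvate, had 0.42 ± 0.20 and 0.20 ± 0.20, and Slc16a1, a lactate and pyruvate transporter, had 0.34 ± 0.25 and -0.08 ± 0.25.

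In the tricarboxylic acid cycle, which takes up the product of the complex, 5 of 13 tested genes were higher and 8 lower in GFP-positive than in control cells (median -0.01), and 4 were higher and 9 lower in GFP-negative cells (median -0.05). Idh3a, the catalytic subunit of the NAD-linked isocitrate dehydrogenase, read 5350 and 7666 in GFP-positive, 5753 and 5984 in GFP-negative, and 3793 and 4587 in control cells. All 4 treated arrays were above both control arrays, with differences of 0.61 ± 0.24 in GFP-positive (adjusted p = 0.636) and 0.49 ± 0.24 in GFP-negative cells (adjusted p = 1.00 by limma). Suclg2, Mdh2 and Sdhb, the next by p, had differences of 0.11, 0.16 and -0.21 in GFP-positive and -0.21, 0.29 and -0.24 in GFP-negative cells.

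Glycolysis, which supplies pyruvate, had 7 of 13 tested genes higher and 6 lower in GFP-positive than in control cells (median 0.04), and 8 higher and 5 lower in GFP-negative cells (median 0.13). Hk2, the inducible hexokinase, read 1499 and 3005 in GFP-positive, 1742 and 2877 in GFP-negative, and 1037 and 1960 in control cells. Each treated array was above the control array of its number, while the groups overlapped, and the differences were 0.56 ± 0.43 and 0.64 ± 0.43. Pfkp, Hk1 and Pgk1 had 0.33, 0.22 and 0.31 in GFP-positive and 0.30, 0.40 and 0.16 in GFP-negative cells.

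Known targets of HIF-1, the factor that acts on Pdk1, form another list. Of 16 tested, 5 were higher and 11 lower in GFP-positive than in control cells (median -0.14), and 9 higher and 7 lower in GFP-negative cells (median 0.02). Egln3, an oxygen-sensing prolyl hydroxylase, read 612 and 913 in GFP-positive, 555 and 714 in GFP-negative, and 231 and 281 in control cells, with differences of 1.45 ± 0.31 (adjusted p = 0.216) and 1.21 ± 0.31 (adjusted p = 0.515 by limma). The mitophagy receptor Bnip3 had the opposite sign on all 4 treated arrays, at 753 and 1026 in GFP-positive, 843 and 1153 in GFP-negative, and 1260 and 2232 in control cells (-0.91 ± 0.33 and -0.75 ± 0.33). The collagen hydroxylase P4ha2 (-0.70 and -0.51) and the disulfide oxidase Ero1a (-0.38 and -0.60) were on the same side as Bnip3.

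Among the PPAR, FOXO and glucocorticoid receptor targets, the list to which Pdk4 itself would belong, 8 of 15 tested were higher and 7 lower in GFP-positive than in control cells (median 0.05), and 7 were higher and 8 lower in GFP-negative cells (median -0.08). Angptl4, a secreted inhibitor of lipoprotein lipase and a PPAR target, came nearest to the Pdk4 pattern in size. It read 561 and 817 in GFP-positive, 565 and 1081 in GFP-negative, and 148 and 224 in control cells, with differences of 1.73 ± 0.39 (1.72 and 1.74 within the numbers; adjusted p = 0.249) and 1.93 ± 0.39 (1.73 and 2.13; adjusted p = 0.280 by limma). The lipid droplet coat gene Plin2 read 8971 and 11754 in GFP-positive, 7514 and 9756 in GFP-negative, and 3327 and 7042 in control cells (1.08 ± 0.36 and 0.82 ± 0.36). The transcriptional coregulator Cited2 read 6512 and 6712 in GFP-positive, 5569 and 7127 in GFP-negative, and 3262 and 3734 in control cells (0.92 ± 0.22 and 0.85 ± 0.22). In these 3 genes all treated arrays lay above both control arrays. The glucocorticoid-induced gene Tsc22d3 lay below them, with -0.70 ± 0.25 and -0.53 ± 0.25.

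**Figure D4:**
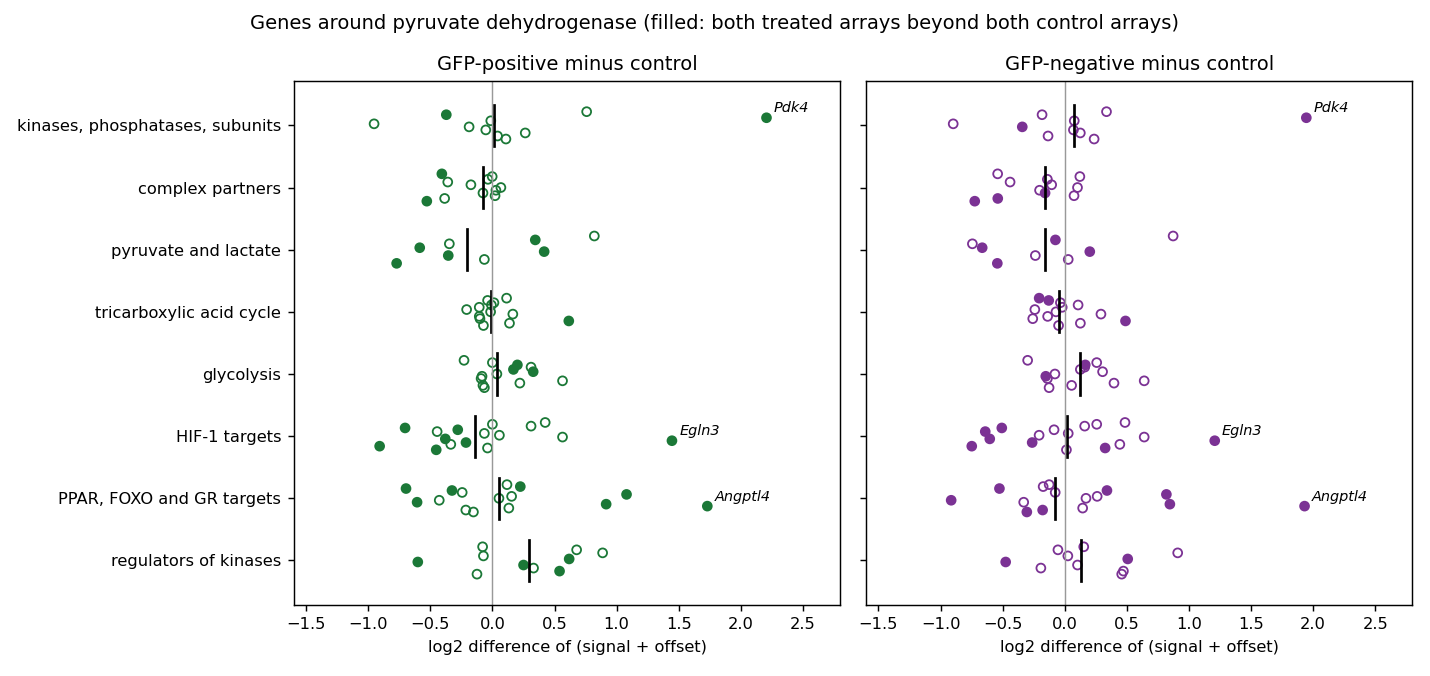
Log2 difference of signal plus offset from control cells (horizontal axis) in GFP-positive cells (left) and GFP-negative cells (right), 1 point per tested gene at its brightest probe set, in 8 lists. Filled points have both treated arrays beyond both control arrays, and black bars are list medians. Pdk4 (2.21 and 1.95), Angptl4 (1.73 and 1.93) and Egln3 (1.45 and 1.21) lie furthest right in both panels.

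The regulators known to act on the kinase genes had 6 of 10 tested genes higher and 4 lower in GFP-positive than in control cells (median 0.29), and 7 higher and 3 lower in GFP-negative cells (median 0.13). Hif1a, the oxygen-regulated subunit of HIF-1, read 4747 and 5555 in GFP-positive, 5212 and 6025 in GFP-negative, and 7769 and 7843 in control cells. All 4 treated arrays were below both control arrays (-0.60 ± 0.21, adjusted p = 0.525; -0.48 ± 0.21, adjusted p = 0.984 by limma). Myc read 1777 and 1538 in GFP-positive, 1460 and 1601 in GFP-negative, and 1056 and 1077 in control cells (0.62 ± 0.22 and 0.51 ± 0.22). The nuclear receptors Esrra and Ppard had 0.54 ± 0.34 and 0.89 ± 0.59 in GFP-positive and 0.47 ± 0.34 and 0.91 ± 0.59 in GFP-negative cells, and the Ppard value came mainly from the arrays numbered 2 (1.49 and 1.90, against 0.29 and -0.08 for number 1).

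The genes whose levels over the 6 arrays were most like those of Pdk4 were Csrnp2, Gja1, Pfkfb4, Zw10 and Mrtfa. Pearson's r was 0.9991 to 0.9998 once the mean of each replicate number was taken off, and the arrays share their cultures' treatment and scaling, so this is a description. Pfkfb4, an isoform of an enzyme that regulates glycolysis, read 943 and 1226 in GFP-positive, 987 and 967 in GFP-negative, and 482 and 489 in control cells. Gja1, the gap junction protein connexin, read 2528 and 4078 in GFP-positive, 2599 and 3180 in GFP-negative, and 1231 and 1547 in control cells. As in Pdk4, all treated arrays of both genes were above both control arrays, which their choice by likeness to Pdk4 largely sets. The log2 differences from control of the 5 genes were 0.59 to 1.20 in GFP-positive and 0.51 to 1.04 in GFP-negative cells, smaller than those of Pdk4, and limma gave adjusted p of 0.246 to 0.571 and 0.515 to 0.958.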

How the data were processed

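Total RNA of 6 samples, 2 each of GFP-positive, GFP-negative and control cells, was measured on 1-colour arrays. The deposited table holds linear signal intensities, 1 for each probe set on each array, which the authors computed with MAS5, as the submitters' processing notes name it; the version was not given in the sources used here. Of 45101 probe sets, 64 controls were left out. Arrays were multiplied to a common 2% trimmed mean of 500, an offset of 30.6 (median lower quartile) was added before log2, and the 27022 probe sets whose mean reached the 40th percentile (67.7) were tested. Symbols came from the platform annotation: 34945 probe sets had 1, 932 several and 9160 none. R 4.3.3 with limma 3.58.1 fitted group means over the 6 arrays, with 3 residual degrees of freedom, a mean-variance trend, two-sided tests and Benjamini-Hochberg adjustment. The code was run on simulated data with known changes in brighter probe sets, which checks the code and not the calls made here. Array number limits the precision.

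Members and gene lists were chosen with earlier results of these data known. All member probe sets are described, led by the brightest of each gene; of other lists, up to 4 genes of smallest p in any comparison are named, and the 5 genes of highest correlation with the member of smallest p. Alternatives changed the normalization (quantile, median centring), the offset, the filter, the variance trend, the groups in the fit and the probe set types, added the replicate number as a block, or left out arrays; leaving out both rescaled arrays was chosen after seeing the data.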

Additional observations from a re-analysis of the deposited data

How the results depend on the processing

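Pdk4 kept its direction against control in all 19 alternatives of both comparisons. Its GFP-positive difference was 1.91 to 2.50 when single arrays were left out (adjusted p 0.0658 to 0.354) and 1.89 to 2.31 otherwise (adjusted p 0.000132 to 0.308); the call was kept in 6 alternatives and lost in 13. Among members 1 probe set was called in GFP-positive against control cells, and 0 with quantile normalization, median centring, 4 times the offset, no trend, the block without a trend, only the 2 groups compared, without both rescaled arrays, and without any 1 array (0 to 0). Over all probe sets that comparison called 33, against 0 with no trend, 8 with the block without a trend, 59 without both rescaled arrays and 0 to 35 without 1 array. GFP-negative against control cells called 8, against 4 with median centring, 3 with the offset divided by 4, the 60th percentile filter, only 2 groups or related-transcript probe sets left out, 0 with no trend or the block without a trend, 48 without both rescaled arrays, and 0 to 6 without 1 array. GFP-positive against GFP-negative cells called 0 under every alternative run, in members and over all probe sets. The cause of these changes was not tested.

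With the replicate number as a block, 1679 probe sets were called in GFP-positive against control cells (6.21%; 1623 with quantile normalization) and 966 in GFP-negative against control cells (3.57%; 911 with quantile normalization). Of the members 1, Pdk4, was then called in each (adjusted p 0.000132 and 0.000462 by limma; 1 with quantile normalization too), and of the 82 tested genes around the complex, 8 higher and 4 lower in GFP-positive and 5 higher and 2 lower in GFP-negative cells. Among these, Angptl4, Egln3, Cited2, Plin2 and Hk2 were called higher and Bnip3 lower in both comparisons. The block also called 8 of 12 fibroblast markers lower in GFP-positive and 7 in GFP-negative cells, and 0 higher. Lum and Dcn were called in both (adjusted p 6.3e-05 and 6.7e-06 in GFP-positive, 6.5e-05 each in GFP-negative cells by limma). Of 4 tested muscle markers 2, Acta1 and Des, were called higher in both. Whether the numbers pair the samples is not known: over 27022 probe sets, the deviations of same-numbered arrays from their group means correlated at 0.506 (GFP-positive and control), 0.513 (GFP-negative and control) and 0.556 (GFP-positive and GFP-negative), from only 2 numbers.

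The other 9 genes gave 504 alternative values, of which 11 moved by more than 1 SD and 0 were called. With the replicate number as a block, the SE of Pdk2 fell from 0.66 to 0.33 in both comparisons with control. Its adjusted p were then 0.121 in GFP-positive and 0.193 in GFP-negative cells (limma), the lowest of the members other than Pdk4. Pdk1 and Dlat have no value with related-transcript probe sets left out, and Pdp2 none with the 60th percentile filter. Dim signal, and levels that differ between the replicate numbers, limit what can be said of Pdk2 and Pdp2.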
